A study of Homo sapiens with 12 samples.

Results

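Aminoacyl-tRNA synthetases are the enzymes that load each tRNA with its amino acid, and cells need a set for the cytosol and a set for the mitochondria. The mRNAs of these enzymes were followed on 12 Affymetrix Human Gene 1.1 ST arrays of BT549 cells, a triple-negative breast cancer (TNBC) cell line. Members were the genes of a list of 35 synthetases, 19 cytosolic and 16 mitochondrial, that had a transcript cluster (a set of probes summarised into 1 value per array) annotated to that gene alone, and of several such clusters the one with the highest mean on the 12 arrays stood for the gene. By this rule 34 of the 35 genes were measured, 19 cytosolic and 15 mitochondrial, out of 17958 genes on the arrays. The seryl enzyme of mitochondria, SARS2, was left out because both of its clusters were also annotated to MRPS12. The list does not hold every human synthetase.

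The arrays formed 4 groups of 3. Cells received siRNAs against estrogen receptor β2 (ERβ2), a splice variant encoded by ESR2, or control siRNA, and RNA was taken after 48 h. Other cells received a pcDNA3 plasmid with FLAG-tagged ERβ2 cDNA or the empty pcDNA3 vector (EV), and RNA was taken after 24 h. All groups were transient transfections of the same line. By the paper's methods the siRNA and plasmid groups differ in nucleic acid, transfection reagent, cell density at transfection and time together.

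The cytosolic and the mitochondrial enzyme for an amino acid usually come from separate genes, while the glycyl enzyme GARS1 and the lysyl enzyme KARS1 serve both compartments through alternative forms. Several cytosolic enzymes sit together with the scaffold protein AIMP1 in the multisynthetase complex. When amino acids are short, uncharged tRNA activates the kinase GCN2 (EIF2AK4), and the transcription factor ATF4 then raises amino acid transporters, amino acid synthesis and many cytosolic synthetases. The tryptophanyl enzyme WARS1 is known as a target of interferon-gamma.

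Values are log2 signals, in which a difference of 1 is a 2-fold change. Signals of different genes come from different probes and were not ranked against each other. The cytosolic clusters had mean signals from 8.08 to 11.35 and the mitochondrial clusters from 5.98 to 9.43, with median SDs within groups of 0.04 and 0.06. "Rose" and "fell" are kept for genes whose adjusted p did not exceed 0.1 in limma's moderated test, with Benjamini-Hochberg adjustment over all 17958 genes. A call below is a gene that passed in this way. The methods describe the samples of a group as biological replicates without saying how the cultures were kept apart, and p-values measure the spread between these samples.

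The 3 mesenchymal genes used to check the line (VIM, SPARC and FN1) had mean signals of 12.16, 11.74 and 11.33. ESR1 and PGR had mean signals of 3.93 and 3.47, ERBB2 of 8.0, the epithelial genes EPCAM and CDH1 of 3.95 each, and the leukocyte, endothelial and red cell markers PTPRC, PECAM1 and HBB of 3.45, 3.92 and 3.18. The cluster of ESR2, the targeted gene, had signals of 4.12, 3.99 and 3.80 after ERβ2 siRNA and 4.03, 3.88 and 4.05 after control siRNA (change −0.02, SE 0.09, adjusted p = 0.913), so it gives no check of the siRNA labels. It had 4.35, 4.72 and 4.37 with the ERβ2 plasmid, against 4.08, 3.93 and 4.01 with EV (change 0.47, SE 0.10, adjusted p = 0.449). By qPCR the paper reports less ERβ2 mRNA in BT549 cells after the siRNA, and by Western blot more ERβ2 protein after the plasmid.

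The first comparison asked how the synthetases differed between ERβ2 siRNA and control siRNA. After ERβ2 siRNA, 6 of 19 cytosolic enzymes rose (AARS1, VARS1, CARS1, KARS1, GARS1 and FARSB), 2 fell (QARS1 and HARS1) and 11 did not pass the test. Of the 15 mitochondrial enzymes 3 rose (CARS2, EARS2 and FARS2), none fell and 12 did not pass. In bulk RNA a change in the mix of cells and a change in RNA per cell cannot be told apart. CARS2, 1.52-fold higher, was the only member past 1.5-fold, a size that 3.25% of all genes reached upward. The share of rises was 31.6% for the cytosolic enzymes and 20% for the mitochondrial ones, against 18.3% of all genes, so that the mitochondrial share lay near the background. The share of falls was 10.5% and 0.0%, against 17.5% of all genes. The median change was 0.08 over the cytosolic and 0.07 over the mitochondrial enzymes, against −0.03 over all genes. With each array centred on its own median over the 17958 genes, the median change of all genes moved to −0.117. Both set medians then turned below 0 (−0.003 and −0.02). In that setting 3 cytosolic enzymes rose and 2 fell, and 3 mitochondrial enzymes rose and 2 fell. With that centring 27.1% of the genes that passed were higher, against 51.0% without it.

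**Figure D1:**
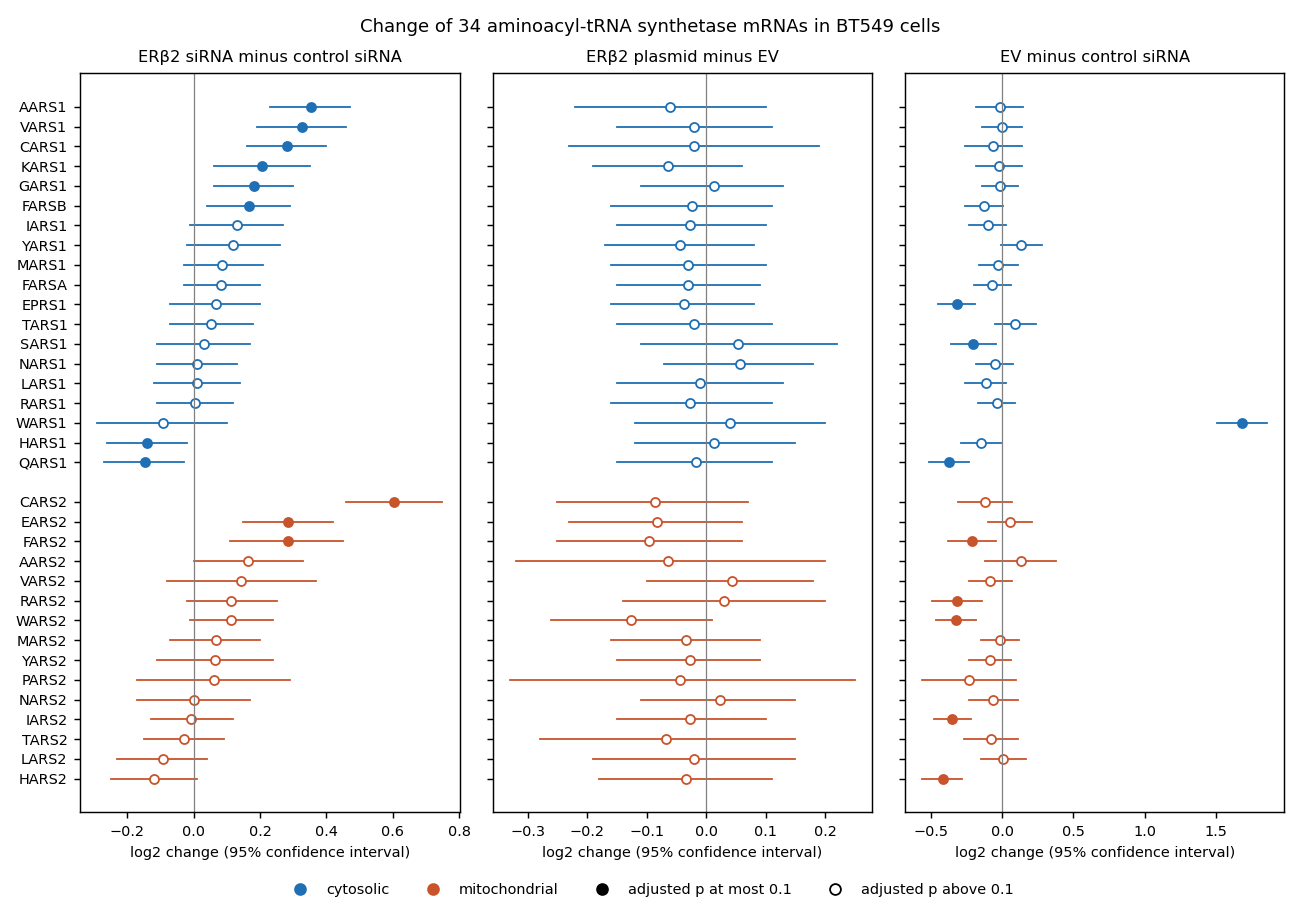
Log2 change (points) with its 95% confidence interval (lines) for 19 cytosolic and 15 mitochondrial synthetases in 3 comparisons of 3 arrays against 3, each panel with its own scale; filled points are genes whose adjusted p did not exceed 0.1. After ERβ2 siRNA 9 members were higher and 2 lower, with the ERβ2 plasmid none passed, and between EV and control siRNA WARS1 stood apart at 1.68.

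Among the cytosolic enzymes the alanyl enzyme AARS1 changed most. Its signal was 10.88, 10.81 and 10.84 after ERβ2 siRNA, against 10.50, 10.49 and 10.48 after control siRNA, a change of 0.35 (SE 0.05, adjusted p = 0.00146). The lowest array with ERβ2 siRNA was above the highest control array. The valyl enzyme VARS1 had 9.68, 9.55 and 9.62 after ERβ2 siRNA and 9.29, 9.26 and 9.32 after control siRNA, a change of 0.33 (SE 0.06, adjusted p = 0.00363), again without overlap. A second cluster annotated to VARS1 carried the same value on all 12 arrays. The cysteinyl enzyme CARS1 had 8.30, 8.34 and 8.35 after ERβ2 siRNA, against 8.03, 8.08 and 8.04 after control siRNA, a change of 0.28 (SE 0.05, adjusted p = 0.0048). These 3 genes passed in each of 17 alternative analyses, in which AARS1 ranged from 0.27 to 0.37, VARS1 from 0.24 to 0.36 and CARS1 from 0.19 to 0.30.

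The other 3 rises were smaller. KARS1, whose product also charges mitochondrial tRNA, had 10.28, 10.24 and 10.25 after ERβ2 siRNA and 10.16, 9.96 and 10.03 after control siRNA, a change of 0.21 (SE 0.06, adjusted p = 0.0457). GARS1, the other enzyme of both compartments, had 11.13, 11.14 and 11.19 after ERβ2 siRNA, against 10.96, 10.96 and 10.99 after control siRNA, a change of 0.18 (SE 0.05, adjusted p = 0.0313). FARSB encodes the β subunit of the phenylalanyl enzyme and had 10.55, 10.65 and 10.63 after ERβ2 siRNA and 10.46, 10.46 and 10.41 after control siRNA, a change of 0.17 (SE 0.06, adjusted p = 0.0564). FARSA, which encodes the α subunit of the same enzyme, had a change of 0.08 (SE 0.05, adjusted p = 0.26). The call of each of these 3 genes was lost without ERβ2 siRNA replicate 3, which left 3 cytosolic rises in place of 6. Without that array the adjusted p was 0.108 for KARS1, 0.117 for GARS1 and 0.16 for FARSB, and the changes were 0.21, 0.16 and 0.16. KARS1 also lost its call without ERβ2 siRNA replicate 1 or control siRNA replicates 2 or 3 (adjusted p from 0.115 to 0.137), and FARSB without ERβ2 siRNA replicate 2 or control siRNA replicates 2 or 3 (0.103 to 0.149). With array centring none of the 3 passed.

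The 2 falls were of the same small size. The glutaminyl enzyme QARS1 had 11.04, 11.05 and 11.09 after ERβ2 siRNA, against 11.19, 11.23 and 11.20 after control siRNA, a change of −0.15 (SE 0.05, adjusted p = 0.0687). The histidyl enzyme HARS1 had 10.26, 10.21 and 10.27 after ERβ2 siRNA and 10.43, 10.38 and 10.35 after control siRNA, a change of −0.14 (SE 0.05, adjusted p = 0.0904). For both genes the groups did not overlap. Leaving out any 1 of the 6 arrays ended the call of HARS1 (adjusted p from 0.121 without control siRNA replicate 3 to 0.212 without ERβ2 siRNA replicate 2). The call of QARS1 held without control siRNA replicate 1 and was lost without any other array (adjusted p from 0.125 without ERβ2 siRNA replicate 3 to 0.162 without control siRNA replicate 2). The 11 cytosolic enzymes that did not pass had changes from −0.09 for WARS1 to 0.13 for IARS1, with SEs from 0.05 to 0.09.

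Of the 7 measured enzymes of the multisynthetase complex, KARS1 rose, QARS1 fell and 5 did not pass, with a median change of 0.07. Of the 12 cytosolic enzymes outside it 5 rose and 1 fell, with a median of 0.10. AIMP1, the complex's scaffold, rose by 0.17 (SE 0.06, adjusted p = 0.0631). The other scaffold genes of the list, AIMP2 and EEF1E1, had no cluster of their own. Split by catalytic fold, the 9 cytosolic enzymes of class I had 2 rises and 1 fall and the 9 of class II had 4 rises and 1 fall, with medians of 0.09 and 0.08. Over all genes 18.3% rose and 17.5% fell, and these small subsets were not tested against each other. EPRS1, which joins a glutamyl enzyme of class I to a prolyl enzyme of class II, had a change of 0.07 (SE 0.06, adjusted p = 0.441).

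In the mitochondrial set the cysteinyl enzyme CARS2 had the largest change of all 34 members. Its signal was 9.97, 9.94 and 9.97 after ERβ2 siRNA, against 9.47, 9.28 and 9.32 after control siRNA, a change of 0.60 (SE 0.06, 95% confidence interval 0.46 to 0.75, adjusted p = 0.000265). All 3 arrays with ERβ2 siRNA lay above the highest control array. Its fold of 1.52 lay just past 1.5, and it stayed at or past 1.5-fold in 15 of 17 alternative analyses. Centring on array medians gave 0.52 and leaving out control siRNA replicate 2 gave 0.57. The adjusted p was at most 0.00896 in all 17.

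The glutamyl enzyme EARS2 charges both the glutamate and, as the first step of a 2-step route, the glutamine tRNA of mitochondria. It had 8.15, 8.04 and 8.16 after ERβ2 siRNA and 7.87, 7.79 and 7.84 after control siRNA, a change of 0.28 (SE 0.06, adjusted p = 0.00801). A cluster annotated to both EARS2 and its neighbour UBFD1 went the opposite way, with 8.04, 8.11 and 8.07 after ERβ2 siRNA and 8.66, 8.73 and 8.67 after control siRNA, a difference of −0.61. That cluster cannot be assigned to either gene and was not tested. The phenylalanyl enzyme FARS2 had 8.68, 8.48 and 8.71 after ERβ2 siRNA, against 8.38, 8.37 and 8.27 after control siRNA, a change of 0.28 (SE 0.07, adjusted p = 0.0229). EARS2 and FARS2 passed in each of the 17 alternatives, with ranges of 0.20 to 0.32 and 0.20 to 0.35.

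**Figure D2:**
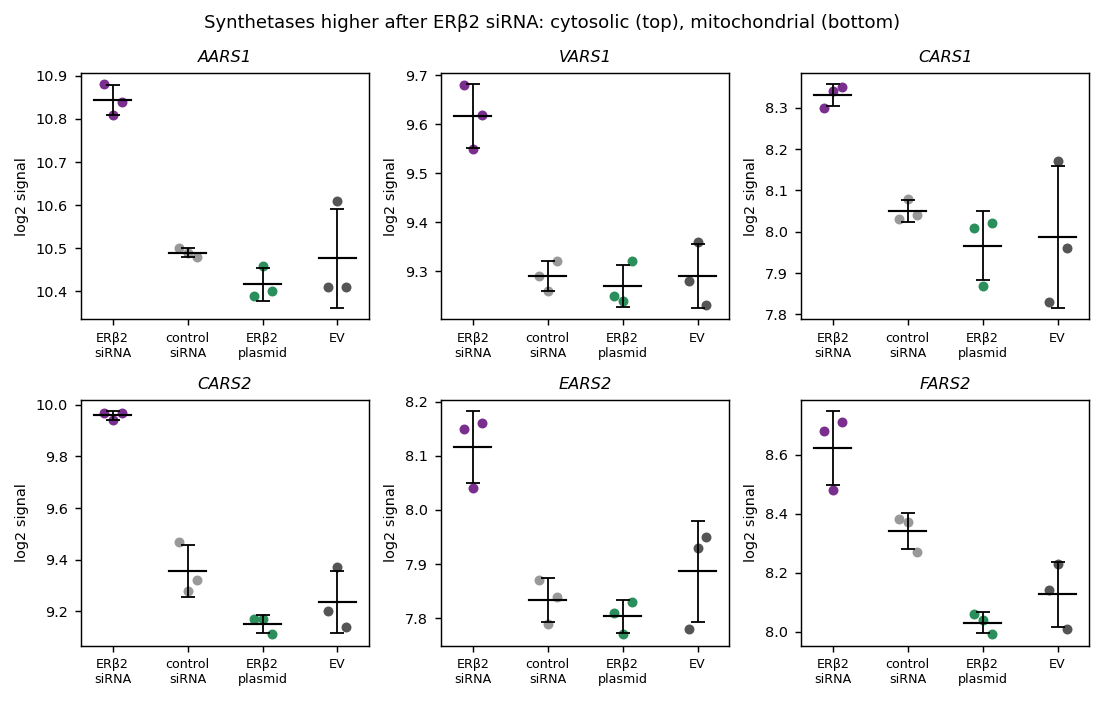
Log2 signal of 3 cytosolic and 3 mitochondrial synthetases on each of the 12 arrays (points), with the mean and SD of each group of 3 (bars); the vertical axes differ between genes and do not start at 0. In all 6 panels the 3 arrays with ERβ2 siRNA lie above the 3 with control siRNA, and the arrays with the ERβ2 plasmid overlap those with EV.

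The next largest changes in the mitochondrial set did not pass. The alanyl enzyme AARS2 had 6.67, 6.47 and 6.48 after ERβ2 siRNA and 6.35, 6.32 and 6.46 after control siRNA, a difference of 0.16 (SE 0.07, adjusted p = 0.135). The valyl enzyme VARS2 had 6.36, 5.97 and 6.03 after ERβ2 siRNA, against 5.97, 5.96 and 6.0 after control siRNA, a difference of 0.14 (SE 0.10, adjusted p = 0.313) that lay mostly in ERβ2 siRNA replicate 1. A second cluster annotated to VARS2 alone gave 0.10 (SE 0.11). The histidyl enzyme HARS2 had 8.66, 8.54 and 8.63 after ERβ2 siRNA and 8.77, 8.71 and 8.71 after control siRNA, a difference of −0.12 (SE 0.06, adjusted p = 0.159), with the groups apart. The tryptophanyl enzyme WARS2 had 8.36, 8.41 and 8.46 after ERβ2 siRNA, against 8.32, 8.28 and 8.29 after control siRNA, a difference of 0.11 (SE 0.05, adjusted p = 0.16). The 12 mitochondrial enzymes that did not pass ranged from −0.12 (HARS2) to 0.16 (AARS2), with SEs from 0.05 to 0.10. Of the 2 clusters shared by SARS2 and MRPS12, one had 7.67, 7.39 and 7.52 after ERβ2 siRNA and 7.38, 7.29 and 7.26 after control siRNA, and the other had 9.14, 9.27 and 9.25 after ERβ2 siRNA and 9.34, 9.27 and 9.21 after control siRNA.

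In all, 17 of the 34 members had every ERβ2 siRNA array above every control array and 4 had every one below, a separation shown by 42.4% of all genes in either direction. By compartment there were 11 above and 2 below among the cytosolic enzymes, and 6 above and 2 below among the mitochondrial ones.

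For 12 amino acids both the cytosolic and the mitochondrial enzyme were measured as separate genes. After ERβ2 siRNA the alanyl pair had changes of 0.35 (AARS1) and 0.16 (AARS2) and the valyl pair 0.33 (VARS1) and 0.14 (VARS2), so that in both the cytosolic enzyme had the larger value. The cysteinyl pair was the other way round, with 0.28 for CARS1 and 0.60 for CARS2, and it was the only pair in which both genes rose. The histidyl pair had −0.14 (HARS1) and −0.12 (HARS2). In the phenylalanyl group, in which the cytosolic enzyme has 2 subunits, the changes were 0.17 (FARSB), 0.08 (FARSA) and 0.28 (FARS2). The cytosolic change was the higher one in 8 of the 12 pairs and the mitochondrial one in 4. These differences between genes were not tested.

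**Figure D3:**
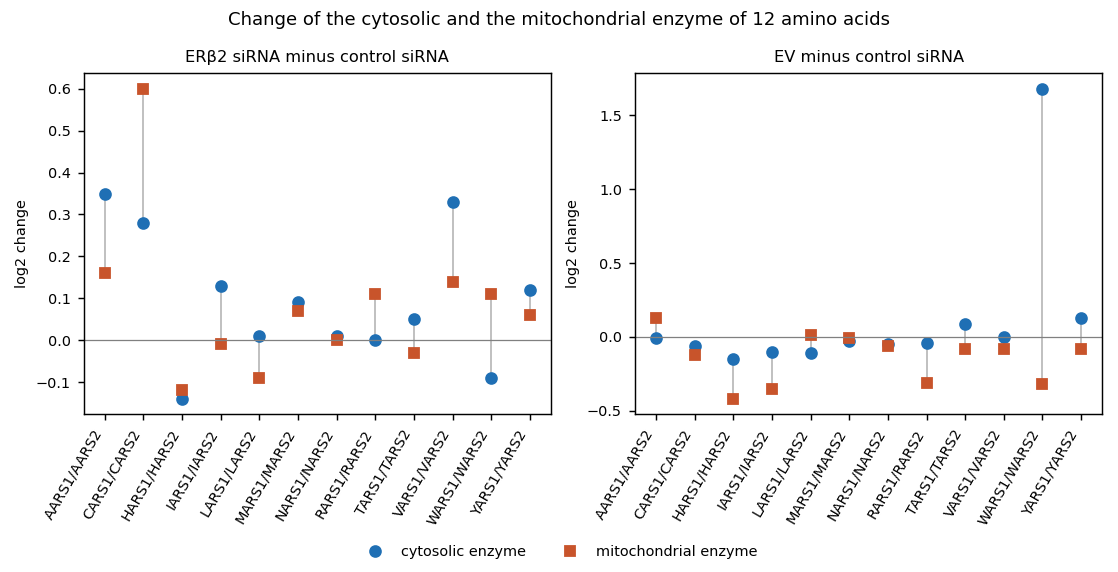
Log2 change of the cytosolic (circles) and mitochondrial (squares) enzyme of each of 12 amino acids, after ERβ2 siRNA relative to control siRNA (left) and with EV relative to control siRNA (right), each panel with its own scale. On the left 7 of the 12 pairs share a sign, among them the alanyl, cysteinyl and valyl pairs above 0 and the histidyl pair below 0. On the right WARS1 at 1.68 and WARS2 at −0.32 lie farthest apart.

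HARS1 and HARS2 are neighbours that are transcribed away from each other. In the RefSeq annotation (GRCh38.p14) HARS1 starts at base 140691370 of chromosome 5 on the minus strand and HARS2 at base 140691455 on the plus strand. The 84 bases between both starts, chr5:140691371-140691454, are shown because both genes share them as upstream sequence and both were lower after ERβ2 siRNA, HARS2 without passing the test. They are written in the direction of HARS2 and 59.5% of them are G or C.
HARS1 to HARS2: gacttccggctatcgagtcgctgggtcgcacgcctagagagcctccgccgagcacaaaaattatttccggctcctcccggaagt

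Since cytosolic synthetases are known ATF4 targets, the RefSeq promoters of the members were searched for the amino acid response motif TGATGNAAN on both strands, from 250 bases before the start to 50 after it. A promoter was listed for 30 of the 35 genes, and for none of LARS1, VARS1, YARS1, AARS2 and VARS2. The motif stood in 7 of 16 cytosolic genes (43.8%) and in 1 of 14 mitochondrial genes (7.14%), against 4.45% of all 27305 genes listed. The 7 cytosolic matches are shown with up to 10 bases on either side, in the direction of the gene, because most of the members' matches lie in them and 3 of them belong to genes that rose. Capitals mark the motif, which reads as its reverse complement in all but NARS1.
AARS1, chr16:70289676-70289704, minus strand, 188 bases before the start: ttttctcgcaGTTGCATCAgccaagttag
CARS1, chr11:3057408-3057436, minus strand, 3 bases before one of its 2 listed starts: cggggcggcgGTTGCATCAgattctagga
GARS1, chr7:30594834-30594862, plus strand, 34 bases before one of its 2 listed starts: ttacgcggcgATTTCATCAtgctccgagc
IARS1, chr9:92293693-92293721, minus strand, 14 bases before the start: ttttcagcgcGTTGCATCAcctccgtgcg
MARS1, chr12:57488053-57488081, plus strand, 5 bases before the start: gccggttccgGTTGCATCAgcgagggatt
NARS1, chr18:57621804-57621832, minus strand, from base 15 of the transcript: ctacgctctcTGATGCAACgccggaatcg
TARS1, chr5:33440956-33440984, plus strand, from base 2 after one of its 2 listed starts: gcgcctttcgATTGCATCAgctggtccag

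Of the 7 cytosolic genes with the motif AARS1, CARS1 and GARS1 rose after ERβ2 siRNA and 4 did not pass, with changes of 0.13 for IARS1, 0.09 for MARS1, 0.05 for TARS1 and 0.01 for NARS1. Of the 9 cytosolic genes whose listed promoter lacked it, KARS1 and FARSB rose, QARS1 and HARS1 fell and 5 did not pass. The median change was 0.13 with the motif and 0.03 without it, against −0.03 over all genes, of which 18.3% rose and 17.5% fell. None of the 3 mitochondrial genes that rose carried the motif, and the mitochondrial gene with it, YARS2, had a change of 0.06 (SE 0.08, adjusted p = 0.578).

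The amino acid response was also read from a list of 27 ATF4 and amino acid response genes. After ERβ2 siRNA 18 of them rose (66.7%, against 18.3% of all genes), 1 fell (3.7%, against 17.5%) and 8 did not pass, with a median change of 0.24. ATF4 itself had 10.48, 10.50 and 10.44 after ERβ2 siRNA, against 10.28, 10.29 and 10.22 after control siRNA, a change of 0.21 (SE 0.05, adjusted p = 0.0202). The largest rises were those of VLDLR, a lipoprotein receptor (1.38), ALDH1L2, a mitochondrial folate enzyme (1.16), SLC7A11, the cystine transporter (0.86), and CBS, which makes cystathionine on the route to cysteine (0.84). All 4 exceeded the largest synthetase change. ASNS, the asparagine synthetase that is a standard ATF4 target, had 7.55, 7.61 and 7.62 after ERβ2 siRNA and 7.29, 7.19 and 7.20 after control siRNA, a change of 0.37 (SE 0.06, adjusted p = 0.00186), close in size to AARS1. SHMT2, which makes glycine in mitochondria, fell by 0.38 (SE 0.06, adjusted p = 0.00211). With the ERβ2 plasmid none of the 27 genes passed, and their median change was 0.06. An unadjusted p below 0.05 in limma's test was found for 8 of the 27, all higher with the plasmid, and for 1260 of all 17958 genes. Every plasmid array was above every EV array for 9 of the 27 genes and below for 2, a separation that 12% of all genes had in either direction. ATF4 had a difference of 0.18 (SE 0.05, adjusted p = 0.563) and CHAC1, which degrades glutathione, of 0.54 (SE 0.09, adjusted p = 0.25) in that comparison.

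The eIF2 kinases and their circuit gave 5 rises and 2 falls among 10 genes, against 18.3% and 17.5% of all genes. EIF2AK3 (PERK, the sensor of unfolded protein in the endoplasmic reticulum) rose by 0.28, EIF2AK4 (GCN2) by 0.27 and EIF2AK2 (PKR, the sensor of double-stranded RNA) by 0.25. The remaining eIF2 kinase, EIF2AK1 (HRI, the heme-regulated kinase), fell by 0.17 (SE 0.05, adjusted p = 0.0487). PPP1R15B, which helps to reverse eIF2 phosphorylation, fell by 0.22. Of 6 measured genes for tRNA proofreading, export and related enzymes 4 rose and none fell, where 18.3% of all genes rose and 17.5% fell. TARS3, a threonyl-tRNA synthetase-like gene, rose by 0.63 (SE 0.10, adjusted p = 0.002). Its mean signal on the 12 arrays was low, 5.16, with 38.5% of all genes below it. SEPSECS, which completes the selenocysteine tRNA, rose by 0.47, DTD2, a deacylase that clears mischarged tRNA, by 0.42, and XPOT, the tRNA exporter, by 0.41. DTD1 and PSTK had differences of 0.09 and 0.10 that did not pass.

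In mitochondria the partner enzymes did not follow CARS2. Among the 4 genes that complete glutamine tRNA and formylate the initiator tRNA, GATC fell by 0.31 (SE 0.06, adjusted p = 0.008) and MTFMT fell by 0.28 (SE 0.08, adjusted p = 0.0416). GATB and QRSL1 had differences of 0.17 and 0.03 that did not pass. Over all genes 17.5% fell. GATC, GATB and QRSL1 together act right after EARS2 on glutamine tRNA, and of these only GATC fell. GATC had 8.38, 8.49 and 8.40 after ERβ2 siRNA and 8.76, 8.80 and 8.64 after control siRNA. The cluster of EARS2 alone was higher on every ERβ2 siRNA array, while the one shared with UBFD1 had a difference of −0.61. Of 7 mitochondrial translation factors 4 rose, among them the initiation factor MTIF2 by 0.33, and 1 fell, the ribosome recycling factor MRRF by 0.27, where 18.3% of all genes rose and 17.5% fell. Of 6 cytosolic elongation factors 1 rose, EEF1D by 0.24, and none fell.

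The second comparison set the ERβ2 plasmid against EV. With the ERβ2 plasmid no member passed and none had an unadjusted p below 0.05, while 0.0111% of all genes (2 of 17958) passed and 1260 had an unadjusted p below 0.05. The changes of the cytosolic enzymes ranged from −0.06 to 0.06 and those of the mitochondrial ones from −0.13 to 0.04, with medians of −0.02 and −0.03. With arrays centred on their medians the cytosolic median was 0.012. No member had groups without overlap, which 12% of all genes had in either direction. AARS1 had 10.39, 10.46 and 10.40 with the ERβ2 plasmid, against 10.41, 10.61 and 10.41 with EV, a difference of −0.06 (95% confidence interval −0.22 to 0.10). CARS2 had 9.17, 9.17 and 9.11 with the plasmid and 9.20, 9.37 and 9.14 with EV, a difference of −0.09 (−0.25 to 0.07). FARS2 had 8.06, 8.04 and 7.99 with the plasmid, against 8.14, 8.23 and 8.01 with EV, a difference of −0.10 (−0.25 to 0.06). EV replicate 2 was the highest EV array for these 3 genes. Without it, a choice made after the data were seen, the differences were 0.01 for AARS1, −0.02 for CARS2 and −0.04 for FARS2. Leaving out the highest EV array can only raise a difference, so these values are no test. Over all 17 alternatives CARS2 ranged from −0.13 to −0.02 and FARS2 from −0.15 to −0.04. The largest difference was that of WARS2, with 7.83, 7.90 and 7.81 with the plasmid and 7.98, 8.04 and 7.90 with EV (−0.13, interval −0.26 to 0.01, unadjusted p = 0.0649, adjusted p = 0.734). The intervals of these 4 genes lay between −0.26 and 0.10.

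Both effects were set against each other in 1 fit of all 12 arrays. The difference of effects (siRNA change minus plasmid change) passed for 10 members, all of them positive, 6 cytosolic (31.6%) and 4 mitochondrial (26.7%), against 15% of all genes with a positive and 11.3% with a negative difference. CARS2 had the largest difference, 0.69 (SE 0.09, adjusted p = 0.000261), followed by AARS1 with 0.41 (SE 0.08, adjusted p = 0.00365), FARS2 with 0.38, EARS2 with 0.37 and VARS1 with 0.35. WARS2 passed here with 0.24 (SE 0.07, adjusted p = 0.0399) although it passed in neither comparison alone. With array centring the difference of WARS2 was 0.12 (adjusted p = 0.281) and that of KARS1, 0.27 in the main analysis, was 0.15 (adjusted p = 0.14), and both calls were lost. QARS1 and HARS1, which fell after ERβ2 siRNA, had differences of −0.13 and −0.15 that did not pass (adjusted p = 0.215 and 0.173). With array centring 2 cytosolic differences were positive and 2 negative, and 3 mitochondrial ones were positive and 1 negative, while 27.2% of the genes that passed were positive, against 57.0% without centring.

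The third comparison set the vehicle groups against each other, EV at 24 h and control siRNA at 48 h. It is no effect of ERβ2, and reagent, nucleic acid, cell density at transfection and time cannot be told apart in it. WARS1 was the only member that rose, and it was the largest change of any synthetase in the data. It had 12.02, 11.82 and 12.03 with EV, against 10.19, 10.30 and 10.33 with control siRNA, a change of 1.68 (SE 0.08, 95% confidence interval 1.51 to 1.86, adjusted p = 1.43e-06), or 3.21-fold. A rise past 1.5-fold was seen for 5.57% of all genes. The ERβ2 plasmid arrays had 12.03, 12.02 and 11.94 and the ERβ2 siRNA arrays 10.00, 10.23 and 10.31, so the 12 arrays fell into a high plasmid set and a low siRNA set with nothing between 10.33 and 11.82. WARS2, its mitochondrial counterpart, had 7.98, 8.04 and 7.90 with EV and 8.32, 8.28 and 8.29 with control siRNA, a change of −0.32 (SE 0.06, adjusted p = 0.00479).

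**Figure D4:**
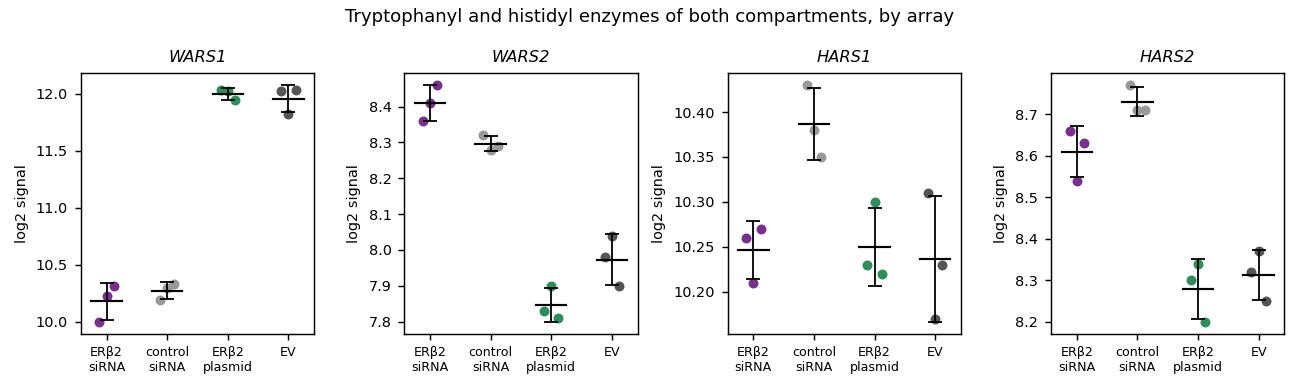
Log2 signal of the cytosolic and mitochondrial tryptophanyl (WARS1, WARS2) and histidyl (HARS1, HARS2) synthetases on each of the 12 arrays (points), with the mean and SD of each group of 3 (bars); the vertical axes differ between genes and do not start at 0. WARS1 is at 11.82 or above in both plasmid groups and at 10.33 or below in both siRNA groups, and WARS2 and HARS2 are lower in both plasmid groups.

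Other interferon-gamma responsive genes differed in the same direction. Of 8 measured genes 6 rose with EV relative to control siRNA and none fell, where 19.2% of all genes rose and 22.4% fell. Their median change was 1.42. CXCL10, an interferon-induced chemokine, had 9.08, 9.13 and 8.88 with EV and 3.26, 3.38 and 3.36 with control siRNA, a change of 5.70. IDO1, which breaks down tryptophan, the substrate of WARS1, had 8.45, 8.63 and 8.36 with EV, against 4.80, 4.80 and 4.54 with control siRNA, a change of 3.77. TAP1, IRF1, B2M and ICAM1 rose by 2.72, 1.66, 1.18 and 0.51. EIF2AK2, the interferon-inducible sensor of double-stranded RNA, rose by 1.70. Whether these genes had a part in the WARS1 difference was not tested. After ERβ2 siRNA 2 of the 8 genes rose (ICAM1 by 0.98 and TAP1 by 0.31), where 18.3% of all genes rose. WARS1 had a change of −0.09 there (SE 0.09, adjusted p = 0.46). With the ERβ2 plasmid none of the 8 genes passed.

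The WARS1 promoter was searched for 2 interferon-linked motifs, and its matches are shown because WARS1 was the member that set the plasmid arrays apart. The gamma-activated motif TTCNNNGAA, which reads the same on both strands, was found in 9.38% of all genes, in 3 of the 16 cytosolic members (WARS1, CARS1 and TARS1) and in 2 of the 14 mitochondrial ones (PARS2 and WARS2). The interferon-stimulated motif GAAANNGAAA, chosen after the WARS1 values were seen, was found in 4.38% of all genes and in WARS1 and EARS2 among the members. Both WARS1 matches lie before the same one of its 2 listed starts, in the direction of the gene and on the minus strand of chromosome 14, with the motif in capitals.
WARS1, gamma-activated motif, chr14:100375471-100375499, 142 bases before the start: gctcaagtgtTTCTGAGAAtctgggtgat
WARS1, interferon-stimulated motif, chr14:100375383-100375412, 55 bases before the start: tttcagaaggGAAACTGAAAgaaagagggg

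With EV relative to control siRNA 5 of 15 mitochondrial members fell (33.3%) and 3 of 19 cytosolic ones (15.8%), against 22.4% of all genes. The share of rises was 0.0% and 5.26%, against 19.2% of all genes. HARS2 fell most, with 8.32, 8.37 and 8.25 with EV and 8.77, 8.71 and 8.71 with control siRNA, a change of −0.42 (SE 0.06, adjusted p = 0.0012). The isoleucyl enzyme IARS2 fell by 0.35 (SE 0.06, adjusted p = 0.00225), WARS2 by 0.32, the arginyl enzyme RARS2 by 0.31 (SE 0.08, adjusted p = 0.015) and FARS2 by 0.21 (SE 0.07, adjusted p = 0.0575). In the cytosolic set QARS1 had 10.89, 10.77 and 10.85 with EV, against 11.19, 11.23 and 11.20 with control siRNA, a change of −0.37 (SE 0.06, adjusted p = 0.0021). EPRS1 fell by 0.32 (SE 0.06, adjusted p = 0.00358) and the seryl enzyme SARS1 by 0.20 (SE 0.07, adjusted p = 0.057). HARS1, which shares its upstream sequence with HARS2, had a difference of −0.15 (SE 0.06, adjusted p = 0.104). The call of FARS2 was lost without EV replicates 1 or 3 or control siRNA replicates 1 or 2 (adjusted p from 0.116 to 0.181), and that of SARS1 without EV replicates 2 or 3 or control siRNA replicates 1 or 3 (0.107 to 0.141).

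The median change was −0.05 over the cytosolic and −0.08 over the mitochondrial enzymes, against −0.06 over all genes, so neither set stood far from the rest. Array centring moved the median of all genes to −0.212 and gave falls for 16 cytosolic and 12 mitochondrial members, with medians of −0.205 and −0.238, while 17.7% of the genes that passed were higher, against 46.1% without it. Of the 34 members 3 had every EV array above every control siRNA array and 13 had every one below, against 47.2% of all genes separated in either direction. Among the 12 pairs the histidyl (−0.15 for HARS1 and −0.42 for HARS2), the isoleucyl (−0.10 for IARS1 and −0.35 for IARS2) and the arginyl (−0.04 for RARS1 and −0.31 for RARS2) pairs had a mitochondrial enzyme that fell and a cytosolic one that did not pass. Of the 27 ATF4 and amino acid response genes 14 rose between these groups (51.9%, against 19.2% of all genes). The 6 that fell were 22.2%, near the 22.4% of all genes. Changes in the list ranged from −0.34 to 1.96, with DDIT3 0.89 and SLC3A2 0.84 higher. AARS1 (−0.01), CARS1 (−0.06), GARS1 (−0.01) and VARS1 (0.00) did not pass in this comparison.

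The sets were also read as a mean signal on each array. The mean of the 15 mitochondrial enzymes was 8.0 to 8.10 on the ERβ2 siRNA arrays, 7.92 to 7.97 on the control siRNA arrays, 7.76 to 7.77 on the ERβ2 plasmid arrays and 7.77 to 7.87 on the EV arrays. The mean of the cytosolic enzymes without WARS1 was 10.38 to 10.42 on the ERβ2 siRNA arrays, 10.28 to 10.32 on the control siRNA arrays, 10.18 to 10.23 on the ERβ2 plasmid arrays and 10.20 to 10.23 on the EV arrays. In both sets the ERβ2 siRNA arrays were the highest of the 4 groups and did not overlap the control siRNA arrays, and both plasmid groups lay below the control siRNA arrays and beside each other. The separation of ERβ2 siRNA from control siRNA depended on the scaling. With each array centred on its median, an alternative added after the data were seen, the mitochondrial means were 8.04 to 8.08 after ERβ2 siRNA and 8.0 to 8.06 after control siRNA, and the cytosolic means were 10.35 to 10.43 after ERβ2 siRNA and 10.34 to 10.43 after control siRNA, so both sets overlapped. Both plasmid groups stayed below the siRNA groups, with no mean above 7.75 in the mitochondrial and 10.21 in the cytosolic set. With WARS1 included the cytosolic means of the ERβ2 plasmid (10.28 to 10.32), EV (10.30 to 10.31) and control siRNA (10.28 to 10.31) arrays overlapped.

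**Figure D5:**
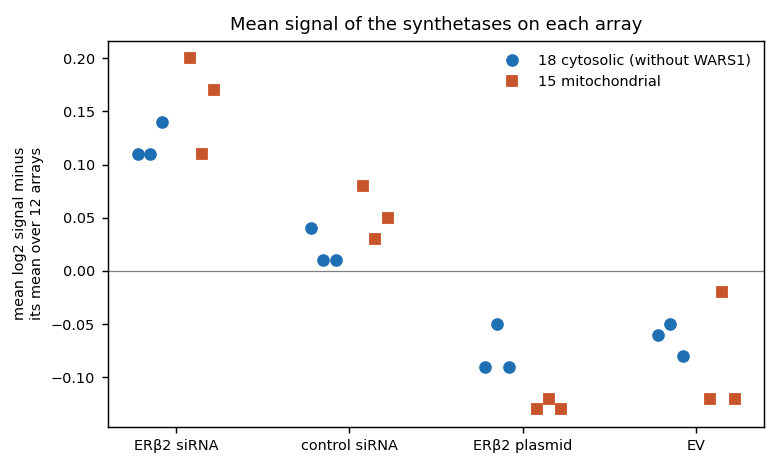
Mean log2 signal of 18 cytosolic (without WARS1, circles) and 15 mitochondrial synthetases (squares) on each of the 12 arrays, less the mean of the set over all arrays. Both sets are highest after ERβ2 siRNA, at 0.11 to 0.14 and 0.11 to 0.20, and are below 0 in both plasmid groups; with arrays centred on their medians, which is not plotted, the ERβ2 siRNA and control siRNA arrays overlap.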

How the data were processed

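The deposited values were log2 signals from RMA, run by the authors in Expression Console of Affymetrix (version not given in the sources used here), which corrects background, normalizes between arrays and summarises probes into transcript clusters. The log base is not stated and was taken as 2. Values had 2 decimals, and array medians over all 33297 clusters lay between 5.04 and 5.14. Symbols came from the platform annotation and were updated through RefSeq. Of 33297 clusters 19181 had 1 symbol, 2055 had several and 12061 are unnamed here. No dim gene was removed.

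Comparisons of 3 arrays against 3 were fitted over all genes by lmFit and eBayes of limma 3.58.1 (R 4.3.3), with no replicate block. A gene passed, which is what the text means by a call, if its adjusted p did not exceed 0.1, and a fold of at least 1.5 was counted separately. Sets were described by counts, medians and means per array, with no set test. Members and lists were chosen with earlier results of these data known. Arrays are named for members past 1.5-fold, for the 6 largest changes of each compartment after siRNA and the 3 largest in each other comparison, and of each list up to 4 genes. FARSA, HARS1, ASNS, ATF4, GATC and further genes outside this rule were named after their values were seen. The procedure was tested on simulated data. Alternatives were other rows, a dim filter, renormalization, centring, the methods' t-test, other priors, thresholds and fits, and leaving out arrays. The number of arrays limits the precision. Promoter sequences are RefSeq's (GRCh38.p14).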

Additional observations from a re-analysis of the deposited data

Results flagged for a closer look

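For 10 synthetases the change after ERβ2 siRNA differed from the change with the ERβ2 plasmid when the difference itself was tested over all 12 arrays. The differences were 0.41 for AARS1, 0.30 for CARS1, 0.19 for FARSB, 0.17 for GARS1, 0.27 for KARS1, 0.35 for VARS1, 0.69 for CARS2, 0.37 for EARS2, 0.38 for FARS2 and 0.24 for WARS2. The siRNA arrays were taken at 48 h and the plasmid arrays at 24 h, so target level, time and transfection cannot be told apart in these differences. FARSB, GARS1 and CARS1 lay near the threshold (adjusted p = 0.0977, 0.0879 and 0.0701 from limma) and lost the call in 13, 14 and 9 of 21 alternative analyses. KARS1 and WARS2 lost it in 1 each, with array centring (0.15 and 0.12, adjusted p = 0.14 and 0.281), while AARS1, VARS1, CARS2, EARS2 and FARS2 kept it in all 21. Dixon's test of an outlying array was not applied to these groups of 3 arrays.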

How the results depend on the processing

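No called gene changed direction under an alternative, while medians near 0 changed sign with centring. Single-gene values were followed only for members that passed in a comparison or had its largest changes. Of these values under the alternatives 564 kept their side of the threshold, 83 lost the call and 5 gained it. Calls gained by other members are not in this tally, such as the further falls with centring for EV against control siRNA. Counts and medians moved as follows, each beside its main value. After ERβ2 siRNA, array centring gave 3 cytosolic rises (6), a cytosolic median of −0.003 (0.083), 2 mitochondrial falls (0) and a mitochondrial median of −0.020 (0.067). Cytosolic falls (2) were 0 over all transcript clusters and 0 at an adjusted p of 0.05. Without dim genes 5 mitochondrial enzymes rose (3) and 1 fell (0), and 1 fell with cyclic loess. The mitochondrial median was 0.020 after quantile normalization. Leaving out 1 array gave 3 to 6 cytosolic rises, 0 to 1 cytosolic falls and mitochondrial medians of 0.027 (without ERβ2 siRNA replicate 1) to 0.113 (without replicate 2).

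With the ERβ2 plasmid the cytosolic median (−0.020) was 0.012 with centring. For EV against control siRNA, cytosolic rises (1) were 2 without dim genes, with cyclic loess, with an intensity trend and robust prior and in 1 fit of all groups. Cytosolic falls (3) were 5 without dim genes, 16 with centring, 6 with the trend and 5 in 1 fit. Cytosolic medians (−0.050) were −0.032 after quantile normalization, −0.005 with cyclic loess and −0.205 with centring. Mitochondrial falls (5) were 12 with centring, and the median (−0.083) was −0.199 after quantile normalization and −0.238 with centring. Leaving out 1 array gave cytosolic medians of −0.067 to −0.023 and mitochondrial medians of −0.132 to −0.068.

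For the difference of effects, cytosolic positives (6) were 3 over all clusters, 2 with centring and 3 at an adjusted p of 0.05. Cytosolic negatives (0) were 2 with centring and 2 with the trend, and mitochondrial negatives (0) were 1 with centring. Centring gave medians of −0.005 (0.113) and −0.018 (0.10), and the mitochondrial median was 0.028 after quantile normalization and 0.059 with cyclic loess. Leaving out 1 array gave 3 (without control siRNA replicate 3 or ERβ2 siRNA replicates 2 or 3) to 5 cytosolic positives, cytosolic medians of 0.093 to 0.132 and mitochondrial medians of 0.060 to 0.138.

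Replicate numbers did not clearly pair the samples. For siRNA arrays the correlations of same-numbered deviations were 0.223, 0.143 and 0.0138, against −0.189 to 0.0612 between different numbers, so a weak pairing remains possible there. For plasmid arrays they were −0.137, −0.0898 and 0.104, against −0.13 to 0.188 between different numbers. With the replicate block 1 cytosolic enzyme fell after ERβ2 siRNA in place of 2. Over all genes the plasmid comparison passed 2 genes, but 35 higher and 9 lower with the trend and 0 by the methods' t-test.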
